A study of Rattus norvegicus with 18 samples.

Results

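Liver gene expression was compared between rats fed a high fat diet (HFD) and rats fed chow, across the genes that the arrays name. The comparison holds 12 of the 18 Affymetrix arrays of the series: the 6 labelled high fat diet group and the 6 labelled chow diet group. They were chosen by diet label alone, and the arrays of the extract group, which received pomegranate skin extract with the diet, were left out of every fit except 1 named alternative. All rats were adult male Sprague Dawley animals that fed for 8 weeks and were fasted overnight before the liver was collected. No transgene or drug was given to either group. The labels describe the chow livers as normal and the HFD livers as fatty, and give neither the composition of the diet nor the hour of collection. RNA came from whole liver, so each value sums hepatocytes and all other cell types, and fewer cells of a type cannot be told apart from less RNA per cell.

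The liver makes, imports and exports cholesterol. When sterol in the membrane of the endoplasmic reticulum is low, the SREBP transcription factors are cut free and switch on the genes of the mevalonate pathway and of cholesterol synthesis, and when sterol is plentiful they are held back by the INSIG proteins. The same reticulum folds the proteins that the liver secretes, with chaperones whose genes carry shared promoter elements that respond to unfolded protein. The liver also runs a circadian clock, in which the BMAL1 and CLOCK proteins drive the Per, Cry, Rev-erb and PAR bZip genes through E-box sequences, in step with light and with meals. Kupffer cells are the resident macrophages of the tissue.

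Signals are log2 values, rounded by the depositors to 0.1, so that a difference of 1 is a doubling. HFD arrays 1 and 2 had 0 probe sets more than 2 log2 units apart, and so did chow arrays 3 and 4, against 18 to 75 in the other 64 pairs. Each of these pairs was averaged and counted as 1 animal, written HFD 1-2 and chow 3-4, which left n = 5 in each group. The averaging was inferred from the values, since the labels name every array a biological replicate. HFD arrays 1 and 2 were the closer pair, with an SD of their differences of 0.117 and 42.9% of probe sets equal. For chow arrays 3 and 4 the SD was 0.215, against 0.26 to 0.407 in the other pairs. Their share of equal probe sets was 20.2%, no more than the 20.4% of chow array 6 and HFD array 2. The spike-in controls that are added at hybridization fell into 2 sets, a high set of chow arrays 1, 2 and 3 (12.44 to 12.55) and a low set of the other 3 chow arrays (11.69 to 11.84) and all 6 HFD arrays (11.4 to 11.75). The part of this difference in the results was not tested by a balanced design, and values within the low set are given beside the main gene lists. The 3′ minus 5′ signal of Gapdh, a sign of RNA integrity that rises as RNA breaks down, was 3.2 in chow 2 and 2.1 to 2.8 on the other chow arrays, 2.6 on both arrays of HFD 1-2, 3.2, 3.0 and 3.1 in HFD 3, 4 and 5, and 2.1 in HFD 6. That of actin was 4.1 in chow 2, 3.3 to 3.7 on the other chow arrays, 3.5 and 3.6 for HFD 1-2, 3.9 to 4.0 in HFD 3, 4 and 5, and 3.1 in HFD 6. Array medians ran from 5.4 to 5.5. Of 11 measured hepatocyte markers, Alb had the highest level, with a mean of 14.96 over the animals, and the list's median difference was -0.02.

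No gene passed an adjusted p of 0.05 (limma with Benjamini-Hochberg adjustment over 14217 genes, smallest adjusted p 0.402), which is 0% of genes. At an unadjusted p under 0.05 the count was 1037 genes, or 7.29%, of which 531 (3.73%) were higher and 506 (3.56%) were lower on HFD. This split was 339 higher and 807 lower when each array was centred on its median, a value known only to 0.1, and 544 higher and 504 lower when centred on its mean. The 5 HFD animals lay entirely above the 5 chow animals for 43 genes (0.302%) and entirely below for 30 (0.211%). Over all genes 49.9% were higher and 46.6% lower, the median difference was 0.00, and 90.0% of genes differed by less than 0.25. Only 27 genes differed by more than 1, with 14 higher and 13 lower, and for 3 of these, Klf12, Kcnj15 and Marveld1, the groups did not overlap. The median SD between single animals was 0.152 on chow and 0.164 on HFD. The median absolute difference between diet means, a measure not comparable with an SD of single animals, was 0.08. The plot of all genes by size and p shows this narrow spread with a few genes outside it.

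**Figure D1:**
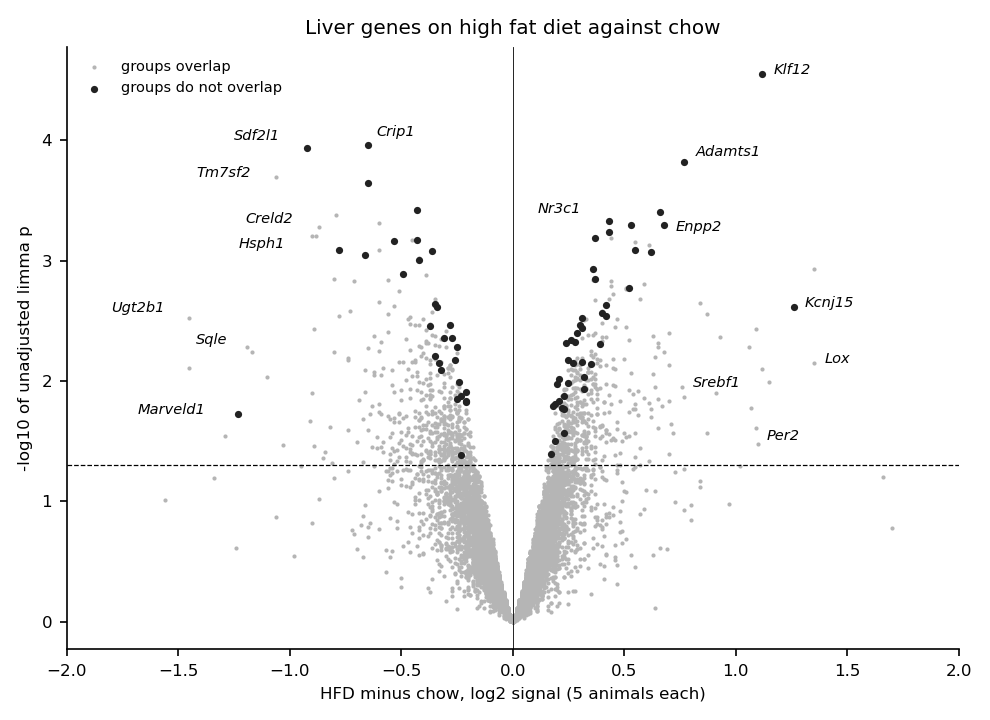
Difference between diets (HFD minus chow, log2 signal, x axis) against -log10 of the unadjusted limma p (y axis) for 14217 genes, with the 73 genes whose groups do not overlap in black and a p of 0.05 as a dashed line. Klf12 has the smallest p, and the named genes on the left include the sterol genes Tm7sf2 and Sqle and the chaperone genes Sdf2l1, Creld2 and Hsph1.

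Animals of a diet group also differed among themselves. The first principal component held 21% of the variance, and on it the chow animals scored from 3.6 to 22.6, with chow 2 at the upper end, while HFD 3 to 6 scored from -19.2 to -8.3. HFD 1-2 scored 8.5, among the chow animals. Without HFD 1-2 the genes at an unadjusted p under 0.05 numbered 1372 (9.65%), with 661 higher (4.65%) and 711 lower (5%), and those whose groups did not overlap numbered 291. Without chow 2 they numbered 847 (5.96%) at that p, 452 higher (3.18%) and 395 lower (2.78%). Within the low spike-in set, with 3 chow arrays as controls, 735 genes (5.17%) reached it, 303 higher (2.13%) and 432 lower (3.04%). With the spike-in set as a term of the model they numbered 493 (3.47%), 203 higher (1.43%) and 290 lower (2.04%). The plot of gene lists by animal gives each list's mean in every animal, with chow 2 and HFD 1-2 outlined.

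**Figure D2:**
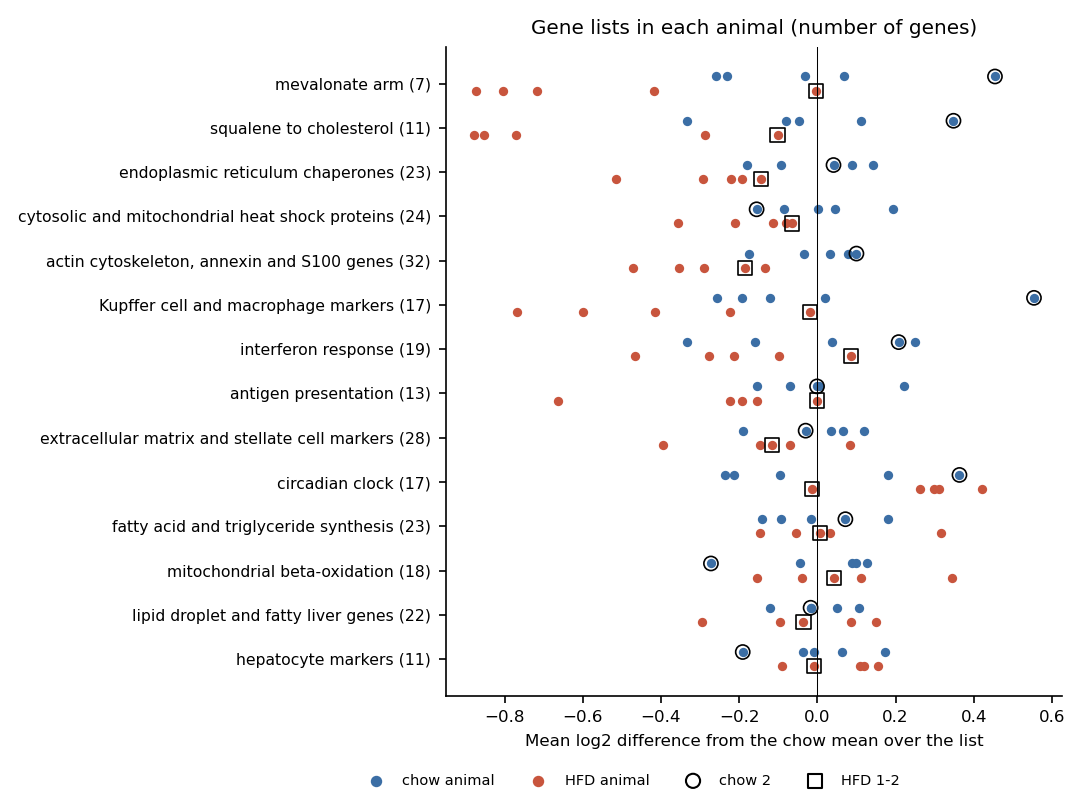
Mean log2 difference from the chow mean (x axis) over the genes of 14 lists (y axis, number of genes measured in brackets), 1 point per animal, blue for chow and red for HFD, with a ring around chow 2 and a square around HFD 1-2. The mevalonate list sits at -0.42 to -0.87 in 4 HFD animals and at 0.00 in HFD 1-2, and the lipid droplet, beta-oxidation and hepatocyte lists lie on both sides of 0 in both groups.

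Cholesterol synthesis genes were lower on HFD in nearly every step measured. Of the mevalonate arm, which turns acetyl-CoA into farnesyl diphosphate, 7 genes were measured, all 7 were lower, the median difference was -0.73, and 6 were lower at an unadjusted p under 0.05 against 3.56% of all genes. Of the steps from squalene to cholesterol, 11 of 11 were lower with a median of -0.54, and 9 had such a p. No gene of either list passed the adjusted threshold, and none separated the groups fully. Lists and members were chosen with earlier results of these data known. A list's count beside the share of all genes is therefore a description and no test.

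The levels of each gene are given as log2 signals in chow animals 1, 2, 3-4, 5 and 6 and in HFD animals 1-2, 3, 4, 5 and 6, in that order. Tm7sf2, a sterol reductase that acts after lanosterol, had the smallest p of the pathway. It stood at 9.3, 10.1, 9.7, 9.8 and 9.7 on chow and 9.3, 8.3, 8.5, 8.2 and 9.0 on HFD. HFD 1-2 was level with the lowest chow animal and the other 4 HFD animals were below it, a difference of -1.06 (SE 0.21, adjusted p = 0.411), or 2.08-fold lower. Sqle, squalene epoxidase and a rate-limiting step, had the largest difference of the pathway. Its levels were 6.2, 7.5, 6.75, 7.2 and 6.6 on chow and 6.8, 5.0, 5.4, 4.9 and 6.3 on HFD. HFD 3, 4 and 5 lay below the lowest chow animal, while HFD 1-2 and HFD 6 lay inside the chow range, and the difference was -1.17 (SE 0.35, adjusted p = 0.575).

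Cyp51, the lanosterol demethylase, differed by -0.78 (SE 0.21, adjusted p = 0.575) and stood at 11.2, 12.0, 11.3, 11.5 and 11.6 on chow and 11.5, 10.5, 10.5, 10.3 and 10.9 on HFD. Mvd, the decarboxylase that completes isopentenyl diphosphate, differed by -0.73 (SE 0.20, adjusted p = 0.575) and stood at 7.3, 7.7, 7.35, 7.2 and 6.8 on chow and 7.2, 6.5, 6.2, 6.2 and 6.6 on HFD. For both genes HFD 1-2 was within the chow range and HFD 3 to 6 were below every chow animal. Idi1 and Fdps, the isomerase and the synthase that lead to farnesyl diphosphate, differed by -0.82 (SE 0.32) and -0.80 (SE 0.24). Acat2, the cytosolic thiolase that starts the path, differed by -0.74 (SE 0.23), and Msmo1 and Dhcr7, late sterol enzymes, by -0.90 (SE 0.31) and -0.65 (SE 0.19). Lss, Ebp, Hsd17b7, Fdft1, Mvk and Pmvk differed by -0.54 to -0.23, and the other probe sets of Mvk by -0.10 to 0.07. Ggps1, which leads away from sterols to geranylgeranyl diphosphate, differed by -0.06 (SE 0.08), and Nsdhl and Sc5d, 2 late sterol enzymes, by -0.08 and -0.15.

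The lists' means by animal show how the difference was shared out. For the mevalonate arm the chow animals lay at -0.26, 0.45, -0.03, 0.07 and -0.23 around their own mean, HFD 1-2 at 0.00 and HFD 3 to 6 at -0.80, -0.87, -0.72 and -0.42. Without HFD 1-2 the median difference was -0.90 for the mevalonate arm and -0.66 for the later steps. Without chow 2, the animal with the highest levels, it was -0.58 and -0.42, and 3 and 5 genes reached an unadjusted p under 0.05. The later steps also had 5 such genes without HFD 3 or without HFD 5, and the mevalonate arm 3 without HFD 4. Within the low spike-in set the medians were -0.63 and -0.56, with 5 and 6 genes at that p. With the spike-in set in the fit as a covariate the medians were -0.48 and -0.49, with 2 and 4 such genes. HFD 3, 4 and 5, the lowest animals for these lists, were also the HFD animals with the higher 3′ minus 5′ signals, while chow 2, the highest animal for these lists, had the highest of those signals on chow. The part of RNA integrity in the difference was not tested. With the 5 extract animals added to the fit for a shared estimate of the spread, the medians were as above and 3 genes of each list had such a p.

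**Figure D3:**
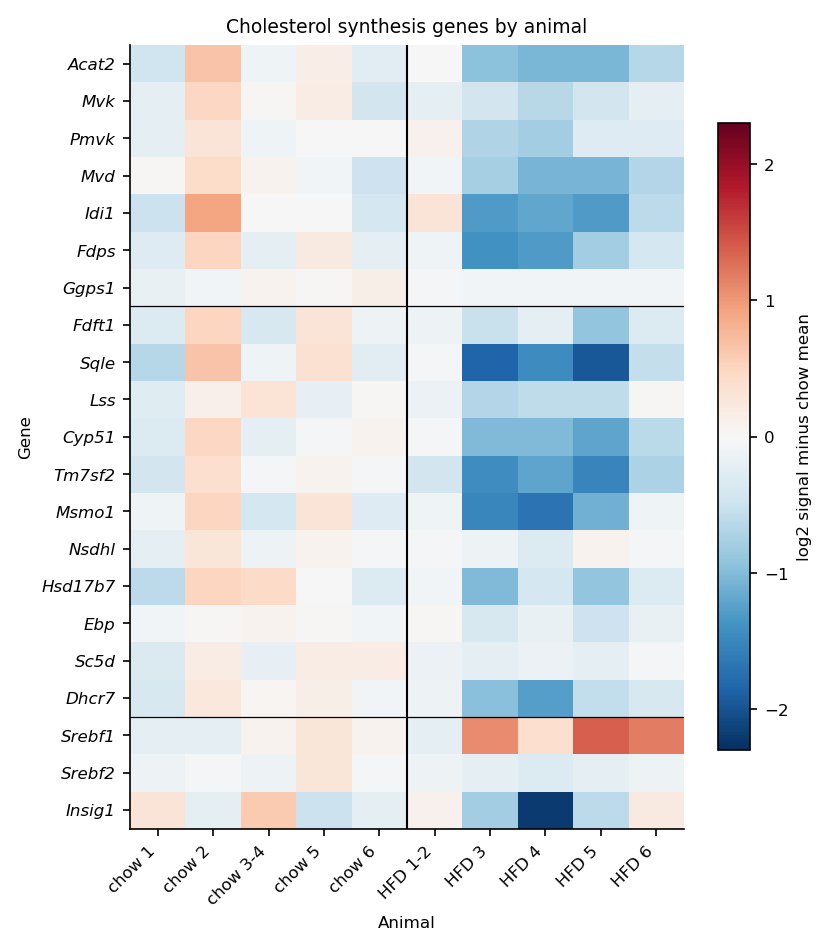
Log2 signal minus the chow mean (colour, blue lower and red higher) for the measured genes of the mevalonate arm, the steps from squalene to cholesterol and 3 sterol regulators (rows) in the 10 animals (columns). The blue block covers HFD 3 to 6 and spares HFD 1-2, and Srebf1 in the lowest block runs the other way in the same animals.

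The regulators of these genes differed in direction. Srebf1, which encodes SREBP1, was higher on HFD at 9.6, 9.6, 9.9, 10.1 and 9.9 on chow and 9.6, 10.9, 10.2, 11.2 and 11 on HFD. All of HFD 3 to 6 were above every chow animal and HFD 1-2 was level with the lowest, a difference of 0.76 (SE 0.26, adjusted p = 0.591). Srebf2, which encodes the form that mainly drives cholesterol genes, differed by -0.20 (SE 0.09), and by -0.02 on its other probe set. Insig1 differed by -0.66 (SE 0.38), with the HFD animals spread from 8.5 to 10.9. Scap, Mbtps1 and Mbtps2, which escort and cut the SREBP proteins, differed by -0.03, 0.09 and 0.07. Npc2, which carries cholesterol out of lysosomes, was lower, at -0.31 (SE 0.12). Over the 10 measured sensing and uptake genes the median was -0.09. Of 12 genes of sterol efflux and ester storage, Nceh1, a cholesterol ester hydrolase, was the only one at an unadjusted p under 0.05 (0.51, SE 0.13, adjusted p = 0.521). It stood at 7.9, 7.7, 7.7, 7.8 and 7.7 on chow and 7.85, 8.1, 8.3, 8.6 and 8.5 on HFD, so that HFD 3 to 6 were above every chow animal and HFD 1-2 was not. The core of a sterol regulatory element, TCACCCCAC, searched on both strands, occurs in 162 of 33469 RefSeq promoters (0.484%) and in none of those listed for the 6 mevalonate and 9 later genes that have one. With so rare a string and so few promoters, finding none does not show that these genes lack such an element. Other forms of it were not searched.

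Chaperones of the endoplasmic reticulum, which fold secreted and membrane proteins, were also lower on HFD as a list, by smaller amounts than the sterol genes. Of 23 measured genes 20 were lower, with a median of -0.25. At an unadjusted p under 0.05, 11 were lower and 1 higher, against 3.56% and 3.73% of all genes. For 2, Sdf2l1 and Hsp90b1, every HFD animal was below every chow animal, against 0.211% of all genes. Promoters are shown for 4 members because the elements known to drive these genes can be read in them. Each is the 300 bases from 250 before to 50 after the start site given by RefSeq on build GRCr8, 5′ to 3′ along the gene, with the matched element in capitals. For Creld2 (chr7:121789134-121789433, plus strand) and Hsp90b1 (chr7:23012244-23012543, minus strand) it is the endoplasmic reticulum stress element, CCAAT and CCACG with any 9 bases between them, read on either strand. For Dnajb11 (chr11:91672751-91673050, minus strand) and Herpud1 (chr19:10614658-10614957, minus strand) it is the second form, ATTGG and CCACG with any 1 base between them.
Creld2: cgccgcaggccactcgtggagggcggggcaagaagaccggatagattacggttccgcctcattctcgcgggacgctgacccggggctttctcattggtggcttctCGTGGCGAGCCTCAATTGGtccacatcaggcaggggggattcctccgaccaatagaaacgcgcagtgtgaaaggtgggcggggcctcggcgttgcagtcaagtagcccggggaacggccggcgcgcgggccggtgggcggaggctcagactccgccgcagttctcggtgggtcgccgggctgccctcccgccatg
Hsp90b1: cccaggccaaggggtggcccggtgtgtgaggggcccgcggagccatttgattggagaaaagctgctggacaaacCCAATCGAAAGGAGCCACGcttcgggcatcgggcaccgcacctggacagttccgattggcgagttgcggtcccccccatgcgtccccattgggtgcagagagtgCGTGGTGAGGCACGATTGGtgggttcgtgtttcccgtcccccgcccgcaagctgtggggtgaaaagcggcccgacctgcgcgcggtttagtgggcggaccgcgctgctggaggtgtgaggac
Dnajb11: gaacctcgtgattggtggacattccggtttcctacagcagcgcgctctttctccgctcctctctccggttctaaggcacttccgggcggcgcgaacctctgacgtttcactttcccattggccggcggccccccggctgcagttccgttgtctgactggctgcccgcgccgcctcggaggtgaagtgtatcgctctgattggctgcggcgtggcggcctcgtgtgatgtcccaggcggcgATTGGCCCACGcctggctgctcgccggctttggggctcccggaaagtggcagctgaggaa
Herpud1: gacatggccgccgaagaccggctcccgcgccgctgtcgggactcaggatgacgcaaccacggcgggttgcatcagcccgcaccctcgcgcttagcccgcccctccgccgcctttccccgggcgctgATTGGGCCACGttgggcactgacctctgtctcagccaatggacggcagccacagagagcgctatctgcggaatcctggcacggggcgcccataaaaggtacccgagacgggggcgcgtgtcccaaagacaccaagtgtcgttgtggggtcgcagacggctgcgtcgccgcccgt
The first form lies in 22 of 33469 promoters (0.0657%) and in those of 7 of the 19 members that have one: Hspa5, Hsp90b1, Creld2, Canx, Xbp1, Dnajc3 and Calr. The second form lies in 17 (0.0508%) and in 3 members: Hyou1, Dnajb11 and Herpud1. A match describes letters and does not show that a factor bound there, and the genes with a match differed between diets by -0.87 to 0.36.

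Sdf2l1, part of a chaperone complex in the reticulum, had the smallest p of the list. It stood at 10.2, 10.3, 10.35, 10 and 9.6 on chow and 9.45, 9.3, 8.7, 9.4 and 9.0 on HFD. The highest HFD animal, HFD 1-2, was below the lowest chow animal, and the difference was -0.92 (SE 0.17, adjusted p = 0.411), or 1.89-fold lower. Creld2, whose promoter above holds the stress element, stood at 10.2, 10.2, 10.5, 9.7 and 9.4 on chow and 9.35, 9.1, 8.9, 9.4 and 8.9 on HFD. HFD 5 equalled the lowest chow animal and the other HFD animals were below it, a difference of -0.87 (SE 0.19, adjusted p = 0.411). Hsp90b1, also called GRP94, differed by -0.32 (SE 0.10, adjusted p = 0.575) and stood at 12.7, 12.4, 12.65, 12.4 and 12.4 on chow and 12.25, 12.3, 12.2, 12.3 and 11.9 on HFD. Chow 2, 5 and 6 were within 0.1 of HFD 3 and 5, so the groups are separated by no more than the rounding of the values.

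Hspa5, the master chaperone BiP, differed by -0.37 (SE 0.13, adjusted p = 0.591) and stood at 12.9, 12.9, 12.95, 12.6 and 12.4 on chow and 12.5, 12.3, 12.1, 12.6 and 12.4 on HFD, with the groups overlapping. Dnajb11, a helper of BiP, differed by -0.42 (SE 0.10), Hyou1, which exchanges its nucleotide, by -0.46 (SE 0.13) (-0.02 on its other probe set), and Manf, a secreted stress protein, by -0.51 (SE 0.13). Calr, Pdia3 and Pdia6, which fold glycoproteins and form disulfides, differed by -0.25, -0.23 and -0.34. Herpud1, which serves the degradation of misfolded proteins, ran the other way at 11.2, 10.9, 11.2, 10.8 and 10.9 on chow and 11.1, 11.4, 11.2, 11.5 and 11.6 on HFD. Its difference was 0.36 (SE 0.12, adjusted p = 0.583), and it carries the same second form of the element as Dnajb11, which was lower. The list's means were -0.14 in HFD 1-2 and -0.29, -0.52, -0.19 and -0.22 in HFD 3 to 6, against -0.18 to 0.14 on chow. Within the low spike-in set the median was -0.22 with 6 genes lower at an unadjusted p under 0.05, with the set as a covariate it was -0.15 with 4, and without HFD 4 there were 7.

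The integrated stress response, a separate arm that works through the factors ATF4 and CHOP, had no shared direction. Of its 21 measured genes 12 were higher and 7 lower, the median was 0.01, and 0 reached an unadjusted p under 0.05. Atf4 differed by 0.06 and Ddit3, which encodes CHOP, by 0.13. Xbp1, a main driver of the chaperone genes, differed by 0.01 (SE 0.19).

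Heat shock proteins of the cytosol and mitochondria, which respond to heat shock factor, were lower in part. Of 24 measured genes 15 were lower and 9 higher, and the median was -0.08. At an unadjusted p under 0.05 0 were higher and 6 lower, against 3.56% of all genes lower: Hsph1, Hspa1a, Stip1, Chordc1, Hsp90ab1 and Fkbp4. Hsph1, which recharges HSP70, stood at 10, 9.9, 10.3, 9.8 and 9.6 on chow and 9.7, 8.7, 8.5, 9.2 and 9.0 on HFD, and differed by -0.90 (SE 0.20, adjusted p = 0.411), or 1.87-fold lower. HFD 3 to 6 were below every chow animal and HFD 1-2 was above the lowest. Its RefSeq promoter on GRCr8 (chr12:10427118-10427417, plus strand) is printed because it holds a heat shock element, searched as GAA, TTC and GAA with any 2 bases between each on both strands, here in capitals on the reverse strand.
Hsph1: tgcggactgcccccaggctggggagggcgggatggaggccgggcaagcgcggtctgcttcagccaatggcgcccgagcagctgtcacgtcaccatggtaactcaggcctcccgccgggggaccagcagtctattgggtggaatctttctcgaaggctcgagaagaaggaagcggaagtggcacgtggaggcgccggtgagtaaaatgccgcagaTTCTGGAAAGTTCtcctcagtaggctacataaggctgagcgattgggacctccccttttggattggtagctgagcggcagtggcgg
That element lies in 267 of 33469 promoters (0.798%) and in 5 of the 20 members that have one, Dnaja1, Chordc1, Hspd1, Hspe1 and Hsph1, whose differences ran from -0.90 to 0.05. Hspa1a, the stress-induced HSP70, stood at 6.8, 6.2, 6.95, 6.3 and 6.7 on chow and 5.55, 5.2, 5.9, 6.1 and 6.2 on HFD. All HFD animals were at or below the lowest chow animal of 6.2, with HFD 6 equal to it, and the difference was -0.80 (SE 0.20, adjusted p = 0.503). Stip1 and Fkbp4, partners of HSP90, differed by -0.41 and -0.40. Within the low spike-in set 3 of the list were lower at that p, with the set as a covariate 2, and without chow 1 or without chow 3-4 there were 3.

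**Figure D4:**
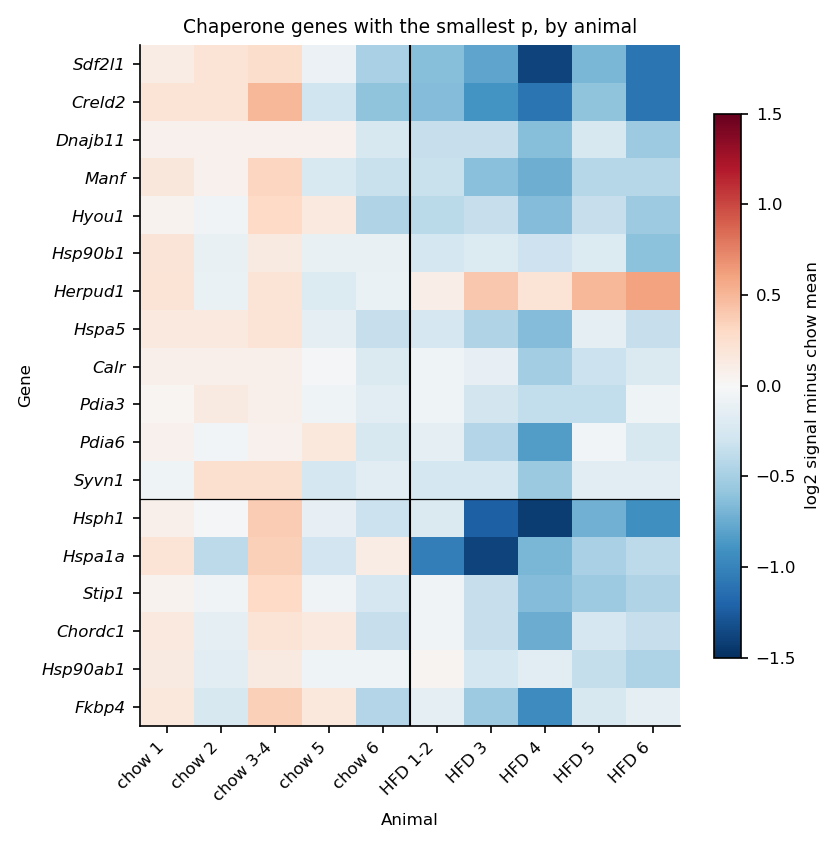
Log2 signal minus the chow mean (colour) for the 12 endoplasmic reticulum chaperone genes and, below the line, the 6 cytosolic heat shock genes with the smallest p (rows) in the 10 animals (columns). HFD columns are mostly blue, most of all HFD 4, and Herpud1 is the red row.

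By count, genes of the actin cytoskeleton and of the annexin and S100 families formed the list with the most genes at an unadjusted p under 0.05. As a share of the genes measured, that count was below those of both cholesterol synthesis lists. It was also slightly below those of the endoplasmic reticulum chaperones, with 11 of 23 lower, and of the clock genes, with 5 higher and 3 lower of 17. Of 32 measured, 28 were lower and 3 higher, the median was -0.27, 15 were lower at that p against 3.56% of all genes and 0 were higher, and for Crip1, Tagln2 and Tpm4 the groups did not overlap. Crip1, a small LIM domain protein, stood at 7.8, 8.2, 7.75, 8.1 and 7.8 on chow and 7.6, 7.2, 7.1, 7.2 and 7.3 on HFD, a difference of -0.65 (SE 0.12, adjusted p = 0.411). Tagln2, an actin-binding transgelin, stood at 8.1, 8.3, 8.65, 8.5 and 8.5 on chow and 8.0, 7.8, 7.4, 7.9 and 7.7 on HFD, a difference of -0.65 (SE 0.13, adjusted p = 0.411). In both genes HFD 1-2 was the highest HFD animal and still below all chow animals. For Tagln2 it stood at 8.0 and chow 1 at 8.1, a single rounding step apart. Tpm4, a tropomyosin, differed by -0.42 (SE 0.10). Anxa2 and Anxa1, which bind membranes in the presence of calcium, differed by -0.45 (SE 0.10) and -0.71 (SE 0.18), and S100a10, the partner of annexin A2, by -0.40 (SE 0.12). The other probe sets of Tpm4 and Anxa2 both differed by -0.09. Vim, the filament protein of mesenchymal cells, differed by -0.60 (SE 0.14), and Lgals3, a galectin rich in macrophages, by -0.46. The list's means were -0.19 in HFD 1-2 and -0.35, -0.47, -0.13 and -0.29 in HFD 3 to 6, against -0.17 to 0.10 on chow. Within the low spike-in set the median was -0.30 with 10 genes at that p, and with the set as a covariate it was -0.23 with 9.

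Markers of Kupffer cells and macrophages were lower on HFD. Of 17 measured macrophage markers 16 were lower and 1 higher, with a median of -0.45. At an unadjusted p under 0.05, 6 were lower, against 3.56% of all genes: C1qa, C1qb, C1qc, Adgre1, Cd68 and Clec4f. Marco, Vsig4, Timd4 and Msr1 were not analysed here. Clec4f, a lectin found on Kupffer cells, stood at 11, 11.7, 11.15, 10.6 and 10.8 on chow and 11.15, 10.6, 10.1, 10.8 and 10 on HFD. Its groups overlapped, and the difference was -0.52 (SE 0.24, adjusted p = 0.673). C1qa, a complement subunit made by macrophages, stood at 9.3, 10.2, 9.5, 9.4 and 9.3 on chow and 9.4, 8.9, 8.6, 9.1 and 8.8 on HFD. Chow 2 was the highest animal and HFD 1-2 lay within the chow range, a difference of -0.58 (SE 0.18, adjusted p = 0.575). The list's means were 0.55 in chow 2 and -0.26 to 0.02 in the other chow animals, and -0.02 in HFD 1-2 and -0.42, -0.60, -0.22 and -0.77 in HFD 3 to 6. Without HFD 1-2 the median was -0.54 with 10 genes at that p, without chow 2 it was -0.27 with 2, and within the low spike-in set -0.32 with 2. Leaving out HFD 3, HFD 4, HFD 6 or chow 3-4 gave 3, 1, 2 and 2 genes, and the set as a covariate gave 1. The direction of the median was kept in each of these fits.

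Interferon response genes were lower in 14 of 19 and higher in 4, with a median of -0.20. Against 3.56% of all genes, 4 were lower at an unadjusted p under 0.05. These were Irf1, an interferon-induced transcription factor (-0.45, SE 0.15), Oas1a and Oasl of the oligoadenylate synthetase family (-0.67 and -0.26), and Ifit3 (-0.45). That count was 2 without any 1 of chow 2, chow 3-4, chow 5, HFD 4 and HFD 5, 7 without chow 1, and 1 with the set as a covariate. The median was -0.10 without HFD 4, -0.11 without chow 5 and -0.31 without chow 1, and within the low spike-in set it was -0.29 with 4 genes lower at that p. Antigen presentation genes were lower in 12 of 13, with a median of -0.21. Cd74, the invariant chain of class II molecules, was the only one of these at that p (-0.48, SE 0.19), and chow 2 was its highest animal at 11.2. That count was 0 without HFD 4, without chow 5 or with the set as a covariate, 2 without HFD 1-2, chow 2 or chow 3-4, and 3 without chow 1 or within the low set. The median was -0.09 without chow 2, -0.12 without HFD 4, where 9 genes were lower and 4 higher, and -0.23 within the low set. The list's mean was -0.66 in HFD 4 and -0.22 to 0.00 in the other HFD animals. Of 23 cytokine and NF-kB genes 0 reached it, with a median of -0.03. Cxcl1, a neutrophil chemokine, stood at 9.1, 10.1, 6.45, 6.7 and 6.6 on chow and 7.75, 5.8, 6.1, 6.2 and 6.4 on HFD. Chow 1 and 2 were more than 2 units above the other 3 chow animals, and the difference of -1.34 had an adjusted p of 0.691.

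Matrix and stellate cell genes were lower in 21 of 28 and higher in 6, with a median of -0.16. At an unadjusted p under 0.05, 6 were lower and 1 higher, against 3.56% and 3.73% of all genes. Timp1, an inhibitor of matrix proteases, stood at 6.0, 5.7, 5.55, 5.6 and 5.7 on chow and 5.4, 5.1, 5.3, 5.4 and 5.5 on HFD and the groups did not overlap (-0.37, SE 0.10, adjusted p = 0.575). Its closest animals, chow 3-4 at 5.55 and HFD 6 at 5.5, lay apart by less than the rounding of the values. Dcn, Col14a1 and Ccn2, which are made by fibroblasts and stellate cells, differed by -0.49, -0.31 and -0.59. Loxl2 differed by -0.43 on its brightest probe set and by 0.05 on its other one. Lox, the enzyme that cross-links collagen, ran the other way at 8.4, 6.4, 8.15, 8.4 and 7.2 on chow and 8.3, 9.9, 8.2, 9.3 and 9.6 on HFD. HFD 3, 5 and 6 were above every chow animal, HFD 1-2 and HFD 4 were not, and the difference was 1.35 (SE 0.42, adjusted p = 0.575), or 2.55-fold higher. Col1a1, Col3a1 and Acta2, the usual marks of fibrosis, differed by -0.22, -0.22 and -0.11. The count of 6 was 3 without chow 3-4, without chow 6 or without HFD 4, and within the low spike-in set it was 8.

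Genes of the circadian clock differed in both directions. Of 17 measured, 11 were higher and 6 lower with a median of 0.30. At an unadjusted p under 0.05, 5 were higher and 3 lower, against 3.73% and 3.56% of all genes. Per2, a repressor that BMAL1 and CLOCK drive, stood at 7.0, 8.3, 7.3, 7.8 and 7.5 on chow and 6.75, 9.2, 9.3, 9.0 and 9.1 on HFD. HFD 3 to 6 were above every chow animal and HFD 1-2 was below all of them, a difference of 1.09 (SE 0.43, adjusted p = 0.631). Dbp, an output factor of the clock, had the largest difference of the list and stood at 5.4, 9.4, 5.35, 7.6 and 6.4 on chow and 5.95, 9.0, 10, 8.6 and 8.9 on HFD. It spanned more than 3 units in each group, with chow 2 among the high animals and HFD 1-2 among the low, and its difference of 1.66 had an adjusted p of 0.691. Tef, a relative of Dbp, differed by 0.65 (SE 0.23), Nr1d2, a Rev-erb, by 0.52 (SE 0.18), Per3 by 1.10 (SE 0.46) and Hlf by 0.48 (SE 0.22). Bmal1 itself was lower and stood at 7.1, 5.5, 7.4, 7.0 and 6.8 on chow and 7.05, 5.3, 5.2, 6.2 and 5.8 on HFD. It was low in chow 2 and in HFD 3 to 6 and high in HFD 1-2, a difference of -0.85 (SE 0.38, adjusted p = 0.672). Nfil3, a repressor that opposes Dbp, differed by -0.45 (SE 0.14) and Rora by -0.44 (SE 0.16). The second probe sets of Per2, Per3 and Rora differed by 0.22, -0.05 and 0.08, and the others of Hlf by -0.03 to 0.46 and of Tef by 0.16 to 0.85. Cry1 and Clock differed by -0.09 and -0.15.

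The means of the clock list were 0.36 in chow 2 and -0.24 to 0.18 in the other chow animals, and -0.01 in HFD 1-2 and 0.26 to 0.42 in HFD 3 to 6. Without HFD 1-2, 8 clock genes were higher and 4 lower at an unadjusted p under 0.05, and Per2 differed by 1.57. Within the low spike-in set 6 were higher and 4 lower with a median of 0.38. Without chow 1, chow 3-4, HFD 3, HFD 4 or HFD 5, in turn, 2 were higher, without chow 6 or HFD 6 there were 3, and with the set as a covariate there were 2. The sources used here do not give the hour at which each animal was sampled, and its part in these differences was not tested. The promoter of Tef (chr7:115206577-115206876, plus strand, RefSeq, GRCr8) is shown because it holds the E-box through which the clock acts, CACGTG, in capitals.
Tef: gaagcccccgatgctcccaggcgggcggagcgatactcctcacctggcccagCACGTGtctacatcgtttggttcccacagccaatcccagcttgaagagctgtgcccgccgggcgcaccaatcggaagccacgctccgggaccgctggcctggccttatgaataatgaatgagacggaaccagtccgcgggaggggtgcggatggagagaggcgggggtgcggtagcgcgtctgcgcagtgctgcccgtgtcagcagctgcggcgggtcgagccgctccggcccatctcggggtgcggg
The E-box, which reads the same on both strands, lies in 2148 of 33469 promoters (6.42%) and in 4 of the 15 clock genes that have one: Bhlhe40, Bhlhe41, Tef and Nr1d1.

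**Figure D5:**
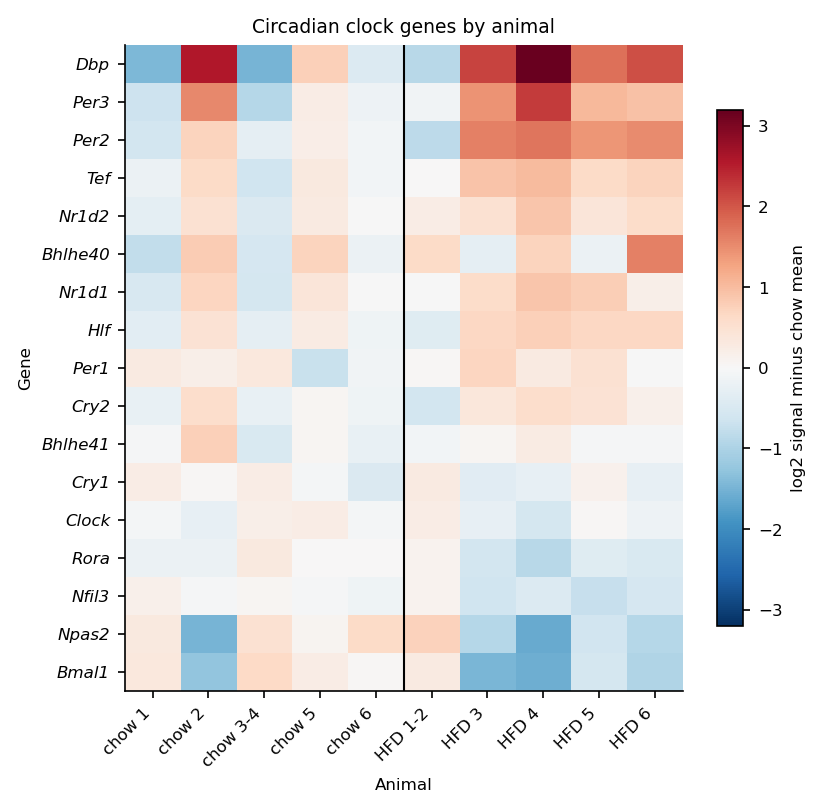
Log2 signal minus the chow mean (colour) for 17 circadian clock genes, ordered by the difference between diets (rows), in the 10 animals (columns). Chow 2 has Dbp, Per3 and Per2 red and Bmal1 and Npas2 blue, as HFD 3 to 6 do, and HFD 1-2 has Dbp and Per2 blue and Npas2 and Bmal1 red, as chow 1 and chow 3-4 do.

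The gene with the smallest p in the table was Klf12, a Krüppel-like factor that represses transcription. It stood at 6.6, 6.9, 7.0, 7.7 and 7.1 on chow and 8.4, 7.9, 8.0, 8.4 and 8.2 on HFD. Every HFD animal was above every chow animal, the closest being HFD 3 at 7.9 and chow 5 at 7.7, and the difference was 1.12 (SE 0.18, adjusted p = 0.402), or 2.17-fold higher. Its second probe set differed by 0.17. The gene's adjusted p was 0.402, and it was 0.0111 without chow 5 and 0.0232 with the 12 arrays as separate samples, the only fits in which a gene passed 0.05. Adamts1, a secreted protease, stood at 7.0, 6.8, 7.1, 6.5 and 6.9 on chow and 7.65, 7.7, 7.2, 8.0 and 7.6 on HFD, a difference of 0.77 (SE 0.14, adjusted p = 0.411) with every HFD animal above every chow animal. Enpp2, which encodes autotaxin, the enzyme that makes lysophosphatidate, stood at 11.4, 10.8, 11.5, 11.4 and 11.3 on chow and 11.6, 12.2, 12.2, 11.9 and 11.9 on HFD, a difference of 0.68 (SE 0.15, adjusted p = 0.411). Its HFD levels ran from 11.6 in HFD 1-2 to 12.2 and none reached down to the chow range, which ended a single rounding step lower at 11.5. Plpp3, which breaks lysophosphatidate down, differed by 0.25 (SE 0.08), and the 14 measured genes of that pathway had a median of 0.01.

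Nr3c1, the glucocorticoid receptor, stood at 9.1, 9.1, 9.35, 9.3 and 9.2 on chow and 9.5, 9.6, 9.5, 9.8 and 9.8 on HFD, and the groups did not overlap (0.43, SE 0.09, adjusted p = 0.411). Its other probe set differed by -0.06, so the gene's 2 probe sets disagree. Of 16 measured genes of the receptor and its targets, 3 were higher and 3 lower at an unadjusted p under 0.05. Over all genes those shares were 3.73% and 3.56%. Sgk1 and Klf9 were higher by 0.65 (SE 0.25) and 0.26 (SE 0.10), while Fkbp5, Angptl4 and Mt1 differed by -0.39, -0.47 and -0.45. The second probe set of Fkbp5 differed by -0.13 and those of Klf9 by 0.11 to 0.13. The count of 3 higher was 5 without chow 3-4 and 1 without HFD 3, and the count of 3 lower was 1 without chow 1. Among the other genes whose groups did not overlap, Kcnj15, a potassium channel, had the largest difference upward and stood at 5.8, 4.9, 4.7, 4.4 and 5.1 on chow and 5.9, 5.9, 7.6, 5.9 and 5.9 on HFD. HFD 4 was its highest animal, and HFD 1-2, 3, 5 and 6 were 0.1 above chow 1. The difference of 1.26 ran from 0.92 to 1.47 with 1 animal left out. The second probe set of Kcnj15 differed by 0.08. Plcb1, a phospholipase C, Ppp2r3a, a phosphatase subunit, and Slco1a1, an organic anion transporter of the liver, differed by 0.62, 0.66 and 0.42. Lmo7, Btbd10, Mtus1, Nabp1 and Rpap2 differed by 0.37 to 0.55, and Btbd10 by 0.07 on its second probe set. Prkab1, the beta subunit of AMP-activated kinase, Aadac, a lipase of the reticulum, and Rnf113a2 differed by 0.61, 0.55 and 0.44, with the groups overlapping.

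Among genes that were lower without overlap, Cd63, a tetraspanin of late endosomes, stood at 8.1, 9.1, 8.55, 8.2 and 8.9 on chow and 7.95, 7.6, 7.6, 7.8 and 8.0 on HFD, a difference of -0.78 (SE 0.18, adjusted p = 0.411). Chow 1 at 8.1 and HFD 6 at 8.0 were a single rounding step apart. Tnfrsf1b, a receptor for TNF, differed by -0.66 (SE 0.15), Ccbe1 by -0.53 (SE 0.12) and Spon2 by -0.43 (SE 0.09). Marveld1 stood at 9.1, 9.7, 8.65, 8.4 and 8.7 on chow and 8.2, 8.0, 5.6, 8.3 and 8.3 on HFD, a difference of -1.23. HFD 4 was its lowest animal, and the difference ran from -1.39 to -0.71 with 1 animal left out. The other probe set of Marveld1 differed by 0.04. Utrn, utrophin, differed by -0.43 on its brightest probe set, whereas its 2 others both differed by 0.07. Pkhd1l1 differed by -0.49. Isyna1, the enzyme that makes inositol from glucose phosphate, stood at 6.7, 6.7, 6.95, 6.3 and 6.2 on chow and 6.2, 5.8, 5.6, 5.9 and 5.4 on HFD, a difference of -0.79 (SE 0.17, adjusted p = 0.411) in which HFD 1-2 equalled the lowest chow animal. Over 14 measured genes of inositol synthesis and use the median was -0.06. Clic2, a chloride channel protein, and Glcci1 differed by -0.88 (SE 0.20) and -0.60 (SE 0.13), with overlap, and the other probe sets of Glcci1 by -0.34 to 0.15.

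The labels call the HFD livers fatty, and the lipid droplet genes had no shared direction. Of 22 measured, 12 were higher and 10 lower with a median of 0.02. Plin2, the main droplet coat protein of hepatocytes, stood at 12.2, 11.4, 12.25, 12.4 and 12.2 on chow and 12.15, 11.4, 11, 12.0 and 12.1 on HFD. Its difference was -0.36 (SE 0.24, adjusted p = 0.777), and HFD 4 was the lowest animal. Cidec, Cidea, Cd36 and Fabp4, which are known to be induced in fatty liver, differed by 0.02, -0.08, 0.03 and 0.11. Pparg, the regulator of fat storage, was higher at 5.1, 4.9, 4.7, 4.9 and 4.8 on chow and 4.85, 5.4, 5.1, 5.3 and 5.5 on HFD, with HFD 1-2 inside the chow range and the rest at or above the highest chow animal (0.35, SE 0.12, adjusted p = 0.596). Mgll, a monoglyceride lipase, was lower, at -0.25 (SE 0.09), with its other probe sets at -0.23 to 0.03. These 2 genes were the only ones at an unadjusted p under 0.05, against 3.73% of all genes higher and 3.56% lower. At that p 4 were lower without HFD 1-2, against 5% of all genes, and 3 without chow 1 or chow 3-4.

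Fatty acid and triglyceride synthesis had as many genes higher as lower, 11 each of 23, with a median of 0.00. The 3 genes at an unadjusted p under 0.05 were all lower, against 3.56% of all genes, and all belong to the making of fatty acids. Without chow 5 there was 1 lower and 1 higher. With the extract animals in the fit the count was 0. With a covariate for the set it was 1 (2.04% of all genes lower), and within the low set 2 (3.04%). Fasn, fatty acid synthase, stood at 9.8, 10.6, 9.55, 10.4 and 9.5 on chow and 9.6, 9.1, 9.0, 9.5 and 9.7 on HFD, a difference of -0.59 (SE 0.22, adjusted p = 0.61) with the groups overlapping. Acss2, which makes acetyl-CoA from acetate, differed by -0.50 (SE 0.18), and Acaca, acetyl-CoA carboxylase, by -0.24 (SE 0.09) (-0.11 on its second probe set). Scd and Dgat2, which desaturate fatty acids and complete triglycerides, differed by 0.11 and 0.13. Pnpla3, a target of SREBP1, stood at 4.0, 4.0, 3.6, 4.3 and 4.0 on chow and 4.1, 3.7, 3.9, 5.6 and 6.6 on HFD. HFD 5 and 6 alone were high, and the difference of 0.80 had an adjusted p of 0.726.

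Fat oxidation genes were near the level of all genes. Mitochondrial beta-oxidation had 13 genes higher and 5 lower of 18, with a median of 0.06 and 0 at an unadjusted p under 0.05. Cpt1a, which admits fatty acids to mitochondria, differed by 0.06. Peroxisomal oxidation had a median of 0.03 over 14 genes, with Ehhadh higher (0.42, SE 0.17) and Abcd3, a transporter into peroxisomes, lower (-0.22, SE 0.09). Targets of PPAR-alpha and of fasting had a median of -0.03 over 17 genes, in which Vnn1 was higher (0.55, SE 0.22) and Angptl4 and Cyp4a3 lower (-0.47 and -0.32). Fabp7, a fatty acid binding protein, was higher by 0.65 (SE 0.19), the only one of 16 uptake and binding genes at that p. Apoc4 was the only one of 18 lipoprotein genes there (0.28, SE 0.09).

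Genes of glucose handling differed singly. Ppp1r3b, which targets a phosphatase to glycogen, stood at 10.7, 9.8, 10.75, 10.2 and 10.4 on chow and 10.1, 11.7, 10.9, 11.9 and 11.8 on HFD. HFD 3 to 6 were above every chow animal and HFD 1-2 was not, a difference of 0.91 (SE 0.31, adjusted p = 0.592), with 0.33 on its second probe set. Slc2a2, the liver glucose transporter, was higher by 0.25 (SE 0.10) and Pck2 lower, at -0.29 (SE 0.10), while Pck1, the enzyme of gluconeogenesis, differed by -0.03. Of the insulin and IGF genes, Irs2, an adaptor of the insulin receptor, was lower at 8.3, 7.8, 7.55, 7.7 and 8.2 on chow and 8.3, 6.6, 7.5, 6.9 and 7.1 on HFD, with HFD 1-2 level with the highest chow animal (-0.63, SE 0.27, adjusted p = 0.663). Sesn1 and Igfbp3 were lower, at -0.30 (SE 0.09) and -0.43 (SE 0.14), and Igfals was higher by 0.29 (SE 0.12). The second probe set of Sesn1 differed by -0.10. The median over 21 genes was -0.04. Bile acid genes had a median of 0.03 over 15 genes. Cyp7a1, the rate-limiting enzyme of bile acid synthesis, differed by 0.73 (SE 0.41), and Abcb4, which exports phospholipid into bile, was lower, at -0.37 (SE 0.13).

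Drug-metabolizing genes had medians of 0.03 over 21 cytochrome P450 and receptor genes and 0.04 over 23 conjugating enzymes. Ugt2b1, a glucuronosyltransferase, had the largest difference among them and stood at 9.8, 8.9, 10.4, 10.7 and 10.7 on chow and 9.95, 8.4, 8.5, 8.6 and 7.8 on HFD. HFD 3 to 6 were below every chow animal and HFD 1-2 was inside their range, a difference of -1.45 (SE 0.40, adjusted p = 0.575), or 2.73-fold lower. The UGT2B genes are a family of near copies, so probe sets can share signal between them. Cyp1a1 was higher by 0.44 (SE 0.11) at a low level of 4.7 to 5.1 on chow and 5.1 to 5.6 on HFD. Cyp2e1, the ethanol-inducible P450, was higher by 0.40 (SE 0.15), Por, which feeds electrons to these enzymes, by 0.47 (SE 0.19), and Cyp2a1 by 0.23, while Cyp3a9 and Cyp2d4 were lower, at -0.74 (SE 0.29) and -0.31 (SE 0.14). The second probe sets of Por and Cyp2d4 differed by 0.08 and -0.12. The 4 P450-list genes that were higher numbered 2 without chow 1, chow 2, chow 6, HFD 3 or HFD 4, and 2 within the low spike-in set. At an unadjusted p under 0.05, 3.73% of all genes were higher. Nqo1, a quinone reductase under NRF2, stood at 7.5, 8.2, 9.15, 9.3 and 7.8 on chow and 8.0, 6.6, 7.7, 7.5 and 7.6 on HFD, a difference of -0.91 (SE 0.35, adjusted p = 0.618) in which chow 3-4 and chow 5 were the high animals. The list of 28 NRF2 and antioxidant genes had a median of -0.05 with 2 lower at an unadjusted p under 0.05, against 3.56% of all genes. That count was 0 without chow 5, and 1 without chow 3-4, chow 6, HFD 4 or HFD 5. It was 5 without chow 2 (2.78% of all genes lower), 4 without HFD 1-2 (5%) and 6 within the low set (3.04%).

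Genes of the respiratory chain had medians near that of all genes. Complex I had a median of 0.03 over 34 genes and complexes II to V 0.01 over 34, with 0 genes of either at an unadjusted p under 0.05. Medians were 0.04 for 18 genes of the TCA cycle, 0.02 for 18 of mitochondrial biogenesis, 0.03 for 30 of the urea cycle and amino acid catabolism and -0.07 for 14 ribosomal protein genes. Of the other cell types, 14 endothelial markers had a median of -0.15, 18 lymphocyte markers -0.05 and 9 cholangiocyte markers -0.06. Krt19, the cytokeratin of bile duct cells, was lower at 5.2, 5.2, 5.2, 6.0 and 5.6 on chow and 5.45, 4.2, 4.3, 4.8 and 4.0 on HFD, a difference of -0.89 (SE 0.25, adjusted p = 0.575), whereas Epcam, which the same cells carry, was higher by 0.33 (SE 0.14). The 8 erythrocyte and blood markers had a median of -0.29 with 0 at that p. The low spike-in set alone gave a median of -0.38 with 3 lower at that p, against 3.04% of all genes. With the set as a covariate the median was -0.39 with 4 lower, against 2.04% of all genes. Without HFD 1-2, chow 1 or chow 2 there was 1. The median was -0.18 without chow 5 and -0.40 without chow 1. By animal, their list means lay at -0.40 to 0.26 on chow, 0.21 in HFD 1-2 and -0.57, -0.23, -0.45 and -0.35 in HFD 3 to 6. HFD 3 to 6 thus had list means below the chow mean for blood markers, as for macrophage markers and sterol genes, and the part of blood content in those differences was not tested.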

How the data were processed

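RNA of 12 liver samples was measured on Affymetrix rat arrays. Values are log2 signals that the authors made with Affymetrix Expression Console and RMA, per the submitters' processing notes, in which versions are not given, and deposited rounded to 0.1. This rounding sets the precision, and the number of arrays limits it further. Of 31099 probe sets, 57 controls were left out and 20826 had 1 gene symbol in the platform annotation, giving 14217 genes, each read by its brightest probe set over the 12 arrays (4525 genes had more than 1).

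Groups follow the diet labels. Arrays 1 and 2 of HFD and 3 and 4 of chow were averaged. Differences (HFD minus chow), SE and p come from limma 3.58.1 (lmFit and eBayes, R 4.3.3) over 10 animals, with Benjamini-Hochberg adjustment over all genes. The smallest adjusted p was 0.402, so lists are described by the genes at an unadjusted p under 0.05, which is no adjusted call. The labels do not say whether litters or cages were shared, so p-values measure the spread between these animals. The fit was tested on simulated data. Spike-in sets were split at the widest gap of the hybridization controls. Promoters come from RefSeq tables (GRCr8).

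Genes named are the 12 per direction with the smallest p, the 12 per direction with the largest difference without overlap, and up to 6 per list with the smallest p, plus members without overlap. Other genes were named for their known role, after their values were seen. The members and lists were chosen with earlier results of these data known. Of 46 lists, the text gives counts for those with the larger medians or more genes at that p, and medians for most others. Alternatives covered the treatment of paired arrays, the samples in the fit, probe sets, dim genes, centring, spike-in sets, the prior and leaving out each animal.

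The labels give both groups replicate numbers 1 to 6. Arrays with the same number did not deviate together (correlations of -0.305 to 0.163), so the numbers were not used as pairs.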

Additional observations from a re-analysis of the deposited data

Results flagged for a closer look

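Each value here stood apart from the other 4 animals of its diet group, with a gap to the nearest that was more than 0.71 of the range of the group. Of 448 groups examined, 28 met this, and chance alone gives about 1 in 20. The rounding to 0.1 makes such gaps easier to reach in genes of narrow range.

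Chow 2 had the highest list mean of its group for inflammatory cytokines and NF-kB, 0.29 against -0.09 to -0.03 in the others, and for acute phase proteins, 0.33 against -0.16 to -0.02. It was also the highest chow animal for the complement subunit C1qa, at 10.2 against 9.3 to 9.5. It was the lowest for the droplet protein Plin2, at 11.4 against 12.2 to 12.4, for autotaxin, Enpp2, at 10.8 against 11.3 to 11.5, for the clock factor Npas2, at 6.2 against 7.8 to 8.3, and for Lmo7, at 6.0 against 6.3 to 6.4.

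HFD 1-2 had the lowest HFD level of the clock genes Per2, at 6.75 against 9.0 to 9.3, and Hlf, at 8.45 against 9.5 to 9.6. It had the highest level of Ggps1, at 6.35 against 6.3 in all others. HFD 4 had the highest level of the channel gene Kcnj15, at 7.6 against 5.9 in all others, and the lowest of Marveld1, at 5.6 against 8.0 to 8.3, and of the interferon gene Oas1a, at 6.0 against 7.2 to 7.65. HFD 1-2 also had the highest level of the immediate early gene Egr1, at 10.95 against 7.3 to 7.7, and chow 6 that of Fam111a among chow animals, at 8.2 against 3.35 to 3.6.

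HFD 6 was the lowest HFD animal for the chaperone Hsp90b1, at 11.9 against 12.2 to 12.3, for Pkhd1l1, at 4.8 against 5.1 to 5.2, and for Epcam, at 7.2 against 7.5 to 7.6. It was the highest for the stress factor Atf4, at 10.3 against 9.9 to 10. HFD 5 was the highest for Apoc4, at 12.3 against 11.9 to 12.0, and HFD 3 the lowest for the mitochondrial chaperonin Hspe1, at 11.6 against 11.9 in all others.

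Chow 6 was the lowest chow animal for the chaperone helper Dnajb11, at 9.6 against 9.9 in all others, and for Atf4, at 9.8 against 10 in all others. Chow 1 was the lowest for Epcam, at 6.6 against 7.15 to 7.3, for Nabp1, at 7.2 against 7.7 to 7.8, and for Slco1a1, at 8.4 against 8.8 to 8.9. Chow 5 was the highest for Srebf2, at 8.4 against 8.0 to 8.1, and for Mbtps1, which cuts it, at 8.2 against 8.0 to 8.05.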

How the results depend on the processing

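All counts here are for HFD against chow. At an adjusted p of 0.05 the count was 0, except 1 gene (Klf12) with the 12 arrays as separate samples, and it ran from 0 to 1 when each animal was left out, with 1 without chow 5. The count at an unadjusted p under 0.05, 1037 genes, was 1972 probe sets with each probe set as a feature, 654 among genes above the median level, 493 with the spike-in set in the model, and 844 to 1372 with 1 animal left out, highest without HFD 1-2. The count of genes whose groups did not overlap, 73, was 31 with the 12 arrays as separate samples, 159 over probe sets, 45 among genes above the median level, 268 within the low spike-in set, and 114 to 291 with 1 animal left out. Fewer samples or fewer genes by construction enter several of these settings. For the remaining changes the cause was not tested. With the replicate number as a block, which the arrays do not support as a pairing, 0 genes passed and 1157 had an unadjusted p under 0.05. No array correlated best with its own number. Of the genes named, differences with an unadjusted p under 0.05 changed sign only with each probe set as a feature, and at least 1 other probe set was then at 0.03 for Egr2, 0.15 for Glcci1, -0.03 for Hlf, 0.05 for Loxl2, 0.04 for Marveld1, 0.03 for Mgll, 0.07 for Mvk, -0.06 for Nr3c1, -0.05 for Per3, 0.08 for Rora and 0.07 for Utrn. Centring on the mean was added after seeing the data. Rounding to 0.1 and the small number of animals limit all differences near 0.1.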

Other observations

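Some genes were high in some animals of a diet group and much lower in others of the same group. Fam111a stood at 3.6, 3.6, 3.35, 3.5 and 8.2 on chow and 3.55, 3.4, 7.2, 8.4 and 8.2 on HFD. It was high in chow 6 and in HFD 4, 5 and 6 and low in the rest, and its difference of 1.70 had an adjusted p of 0.78. Gpm6a, a membrane glycoprotein, stood at 4.7, 7.5, 8.55, 9.1 and 8.7 on chow and 4.15, 4.0, 7.4, 8.8 and 8.0 on HFD, low in chow 1, HFD 1-2 and HFD 3 and high in the rest. Ubd, a ubiquitin-like protein induced by interferon, stood at 9.5, 9.4, 8.3, 9.8 and 8.5 on chow and 8.6, 4.7, 5.3, 9.6 and 9.5 on HFD, low in HFD 3 and 4 alone. These 3 genes were chosen after their values were seen.

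Of the immediate early genes, which respond within minutes to a stimulus or to handling, Egr1 and Fos differed widely among animals of a diet group. Egr1 stood at 8.8, 7.7, 8.9, 7.7 and 9.5 on chow and 10.95, 7.3, 7.4, 7.7 and 7.4 on HFD, with HFD 1-2 above every other animal. Fos stood at 5.5, 5.4, 8.0, 4.6 and 8.0 on chow and 6.55, 4.8, 5.4, 6.5 and 5.4 on HFD, with chow 3-4 and chow 6 high. Of 19 measured immediate early genes, 1 was lower at an unadjusted p under 0.05, against 3.56% of all genes. This was Egr2, at -0.37, SE 0.13, whose other probe set differed by 0.03. The list's median was -0.08. Without HFD 1-2 it was -0.15, with 1 gene higher and 4 lower at that p, against 4.65% and 5% of all genes. Sex-biased genes, which follow the growth hormone pattern, had a median of 0.01 over 8 genes, with Cyp2c11 at 13.0 to 13.5 on chow and 13.3 to 13.5 on HFD. Stat3, which relays IL6 signals to the acute phase genes, differed by -0.55, SE 0.24, and chow 2 was its highest animal at 10.8. Socs3, its feedback inhibitor, differed by -0.27, SE 0.12. Of 23 cell cycle genes, with a median of -0.01, Cdk2 was the only one at that p (0.25, SE 0.10).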
